A study of Mus musculus with 8 samples.

Results

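Serotonin receptors are the proteins through which serotonin, released in the striatum by fibres of the raphe nuclei, acts on neurons. All but 1 of the receptor families are G-protein-coupled: the Htr1 receptors act through inhibitory G proteins and lower cyclic AMP, the Htr2 receptors act through Gq and phospholipase C, and Htr4, Htr6 and Htr7 act through stimulatory G proteins and raise cyclic AMP. Htr3a forms a cation channel that serotonin opens. In the striatum, Htr2c, Htr6, Htr4 and Htr1b are known from projection neurons, and Htr2c is also known as an abundant receptor of the choroid plexus.

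Here the serotonin receptors are the 10 genes Htr1a, Htr1b, Htr1d, Htr1f, Htr2a, Htr2c, Htr3a, Htr4, Htr6 and Htr7, of 23669 named genes on the array, read by every non-control probe that carries their name. There were 15 such probes of 39429 on the array, and each was kept separate. The study compared striatal RNA of 4 adult male mice labelled heterozygous for a gene trap in Brd2, a reader of acetylated histones, with that of 4 adult male mice labelled wildtype. Mice of both genotypes came from crosses between heterozygotes on a C57Bl/6j background, at the 7th backcross generation, and were typed by PCR over the trap junction. Each of 4 arrays on 1 slide held 2 mice of 1 genotype, 1 labelled with Cy3 (replicates 1 and 3) and 1 with Cy5 (replicates 2 and 4), so genotype and array cannot be told apart except through the spread between the 2 arrays of a genotype. The number of mice and arrays limits the precision, and a p-value weighs a difference against variation among mice and among arrays at once.

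Values are log2 intensities after background correction and normalisation, and a difference is heterozygous minus wildtype. A probe was called detected in a sample where the scanner software marked it well above background. Between 16450 and 24905 probes were detected in the heterozygous samples, and between 21061 and 23277 in the wildtype samples. The lowest count came from heterozygous replicate 3. The 8 samples correlated at 0.986 to 0.989 within an array and at 0.925 to 0.959 between arrays.

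Brd2 itself had 2 probes, and neither was lower in the mice labelled heterozygous. The brighter averaged 11.74 ± 0.07 in heterozygous and 11.46 ± 0.64 in wildtype samples, and the dimmer 8.01 ± 0.18 in heterozygous and 7.13 ± 0.26 in wildtype samples (SD, n = 4 each; limma adjusted p = 0.93 and 0.49). The labels do not place the trap relative to the probes, so these signals cannot check the labels, and every direction below is drawn from the labels. One label field of each sample names the left atrium of the heart, against the striatum in the others. All 17 striatal projection neuron markers on the array were detected in all 8 samples, led by Ppp1r1b, Penk and Arpp21, and of 15 atrial markers 4 were detected in all 8 samples (Myh7, Myl4, Ryr2 and Nppa) and 5 in none (Myl7, Actc1, Nppb, Tbx5 and Pln).

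The probes are 60 bases long, and the letters given here are those in the deposited scanner files, with places on the mouse build mm9 as the files give them. These 4 are shown because they lie in the coding part of the genes on which the probe comparisons turn, including the 2 Htr2c probes that read the same transcript differently. Capitals mark the stop codon that ends the Htr2c reading frame.

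Htr2c A_55_P2068461 (chrX:143604149-143604208, plus strand): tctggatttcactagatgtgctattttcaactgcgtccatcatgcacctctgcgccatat
Htr2c A_55_P2158921 (chrX:143629079-143629138, plus strand): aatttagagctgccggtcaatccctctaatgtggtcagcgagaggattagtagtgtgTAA
Htr1b A_52_P103998 (chr9:81525015-81525074, minus strand): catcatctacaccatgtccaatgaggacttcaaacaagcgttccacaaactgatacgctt
Htr6 A_51_P183497 (chr4:138617683-138617742, minus strand): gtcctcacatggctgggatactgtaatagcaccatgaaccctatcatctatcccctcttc

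Most serotonin receptor probes read far below the median of the probes detected in all 8 samples. The 11983 probes on the array that were detected in no sample had a median signal of 6.16 and a 95th percentile of 6.62, and the 15890 detected in all 8 had a median of 10.12. Of the 15 receptor probes, 1 was detected in all 8 samples, Htr2c A_55_P1977503, and 2 were detected in none, Htr4 A_52_P581594 and Htr7 A_55_P2177309. By sample, 10, 12, 1 and 10 of the 15 (66.7, 80.0, 6.7 and 66.7%) were detected in heterozygous replicates 1 to 4. In wildtype replicates 1 to 4 the counts were 10, 13, 5 and 8 (66.7, 86.7, 33.3 and 53.3%). Of all probes on the array, 55.6, 63.2, 41.7 and 58.2% were detected in the same heterozygous samples, and 54.0, 59.0, 53.4 and 58.4% in the wildtype samples. The receptor share was above that of all probes in heterozygous replicates 1, 2 and 4 and wildtype replicates 1 and 2. It was below in heterozygous replicate 3 and wildtype replicates 3 and 4. The Cy3 samples of the 2 arrays with replicates 3 and 4 thus held the fewest receptor probes in either genotype, and also the lowest share of all probes. By the scanner's milder mark, positive and significant against background, the counts were 12, 14, 7 and 12 in heterozygous and 13 in each wildtype sample. Receptor RNA in dissected tissue can vary through fewer cells of a type or less RNA per cell, and these cannot be told apart.

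**Figure D1:**
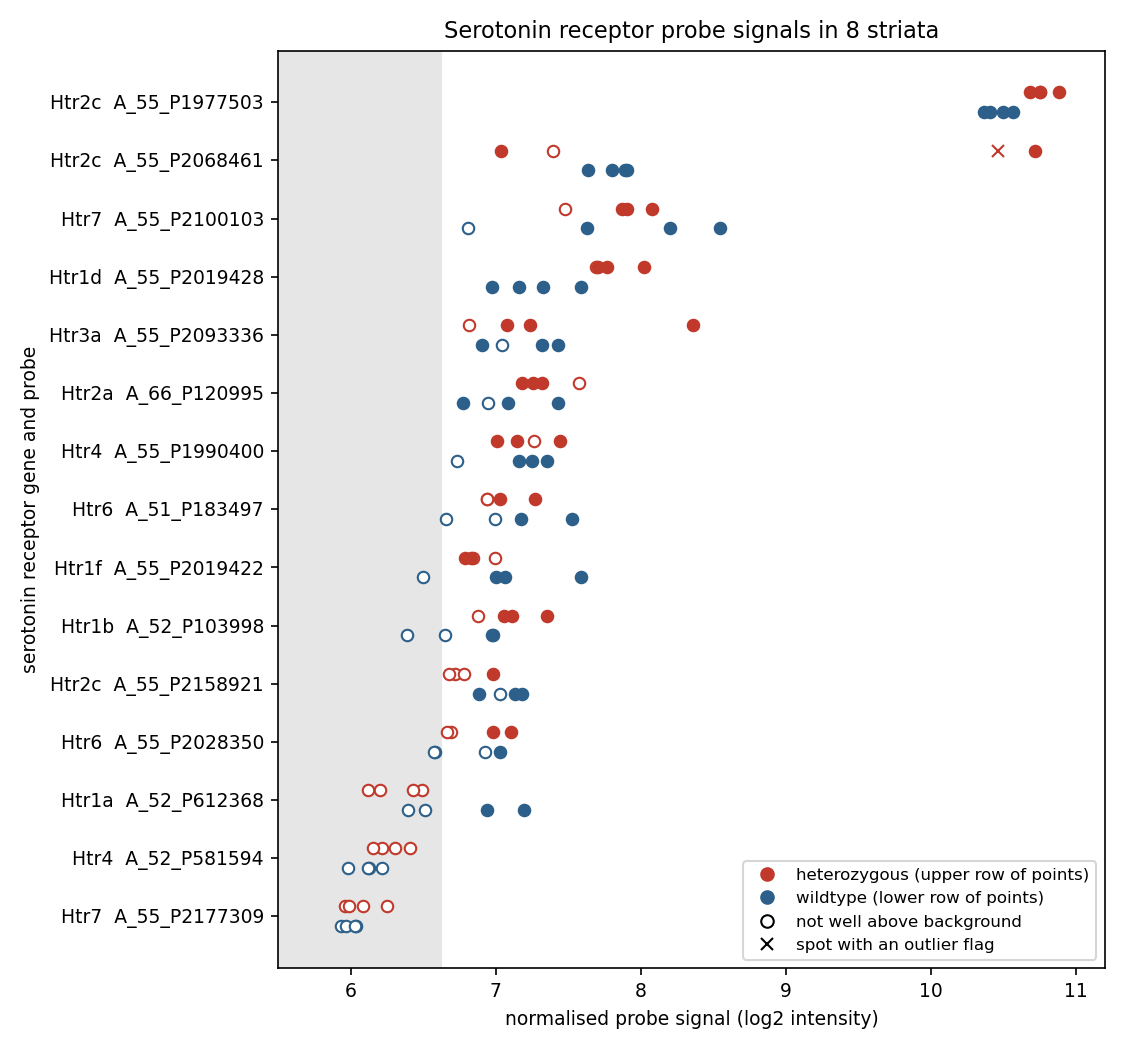
Normalised log2 intensity (horizontal axis) of the 15 serotonin receptor probes, 1 point a sample, heterozygous in the upper and wildtype in the lower row of each probe; open points were not well above background, the cross is a spot with an outlier flag, and the grey band ends at the 95th percentile (6.62) of probes detected in no sample. Htr2c A_55_P1977503 lies at the bright end in all 8 samples, and Htr2c A_55_P2068461 only in heterozygous replicates 1 and 2 (10.72 and 10.46). The other points lie mostly between 6 and 8.

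The order of the probe signals had 1 wide step. Htr2c A_55_P1977503 averaged 10.61 over the 8 samples, and 82.5% of the probes on the array were dimmer. The next signal, Htr2c A_55_P2068461 at 8.05, lay 2.56 lower, and then came Htr7 A_55_P2100103 at 7.81 and Htr1d at 7.53. The mean of A_55_P2068461 (SD 1.22) covers 7 samples, 10.72 in heterozygous replicate 1 and the rest between 7.03 and 7.90. With the scanner's processed signals this probe held place 4. Below these stood Htr3a (7.27), Htr2a (7.20), Htr4 A_55_P1990400 (7.17), Htr6 A_51_P183497 (7.07), Htr1f (6.95), Htr1b (6.92), Htr2c A_55_P2158921 (6.92), Htr6 A_55_P2028350 (6.82), Htr1a (6.53) and the pair of undetected probes at 6.19 and 6.03. Apart from the first gap and the last, which separates the 2 undetected probes, no gap between neighbours exceeded the larger of their SDs. The signal of a probe depends on its sequence, so this is an order of signals and not of transcripts: the 3 probes of Htr2c alone held places 1, 2 and 11.

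Over the whole array limma called 0 of 19743 tested probes at an adjusted p under 0.05, with a lowest adjusted p of 0.41. Percent called was 0.0, and 1596 probes (8.08%) had an unadjusted p under 0.05, 3.87% being higher in heterozygous samples and 4.21% lower. Of the 15 receptor probes, 11 passed the filter on dim probes and were tested, which covers every gene except Htr1a. None of the 11 had an unadjusted p under 0.05, and the lowest was 0.11. The adjusted p of the 11 ran between 0.732 and 0.997. Their differences ran between −0.27 and 1.00 with a median of 0.20, against a median of −0.02 over all tested probes. Of the 11, 8 lay above 0 and 3 below, while 48.0% of all tested probes lay above 0. The 95% intervals, which are not adjusted for the number of probes, reached between 0.52 and 2.03 to either side. Differences of about that size were thus not detectable at this number of arrays, and a call after adjustment needed a larger one. The samples of the genotypes did not overlap for 2 of the 11, both higher in heterozygous samples, where 17.5% of all tested probes did so, 8.3% higher and 9.17% lower in heterozygous samples.

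**Figure D2:**
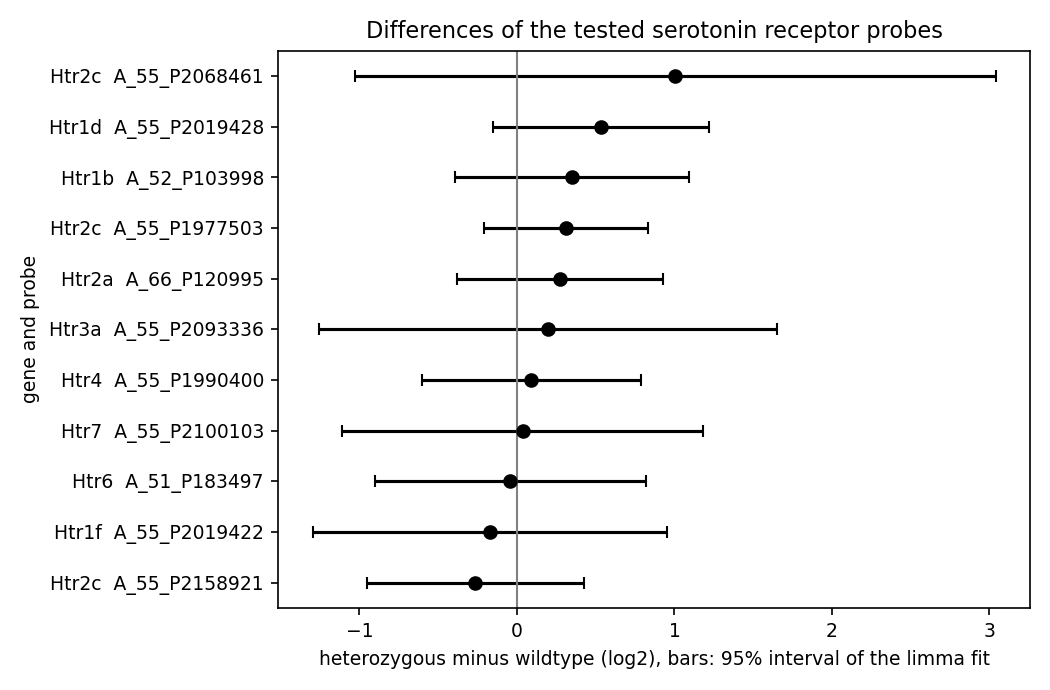
Heterozygous minus wildtype log2 difference (horizontal axis) of the 11 tested serotonin receptor probes with the 95% interval of the limma fit. Every interval includes 0, and the widest, of Htr2c A_55_P2068461, runs between −1.03 and 3.04.

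Among the Gi-coupled receptors, Htr1d came closest to a difference. Its probe, A_55_P2019428, on the plus strand at chr4:135999620-135999679, read 7.76, 8.02, 7.69 and 7.70 in heterozygous replicates 1 to 4, against 7.33, 7.58, 7.16 and 6.97 in wildtype replicates 1 to 4. All 4 heterozygous samples were above all 4 wildtype samples, and within each genotype the array of replicates 1 and 2 read higher. The means were 7.80 ± 0.15 in heterozygous and 7.26 ± 0.26 in wildtype samples (SD, n = 4 each), a difference of 0.53 (SE 0.30, 95% interval −0.15 to 1.22) that did not pass the test (limma adjusted p = 0.73, unadjusted 0.11). It was above 0 under all 26 alternatives that gave it a value, between 0.31 and 0.73.

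Htr1b, the terminal autoreceptor that limits serotonin release and is also carried by striatal projection neurons, was read by the probe shown above. It gave 7.35, 7.06, 6.88 and 7.11 in heterozygous samples, against 6.98, 6.98, 6.65 and 6.39 in wildtype samples. The heterozygous samples were on the whole higher, but the groups overlapped, and the probe was detected in 3 heterozygous and 1 wildtype sample. The difference of 0.35 (SE 0.33) did not pass the test (limma adjusted p = 0.88), and over the alternatives it ran between 0.12, with the second wildtype array (replicates 3 and 4) left out, and 0.99, with the scanner's processed signals.

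Htr1f, a Gi-coupled receptor with a chiefly neuronal distribution, read 6.99, 6.79, 6.84 and 6.83 in heterozygous samples, against 7.58, 7.00, 6.50 and 7.06 in wildtype samples. The wildtype samples lay both above and below the heterozygous ones, and the difference was −0.17 (SE 0.50, limma adjusted p = 0.98). Htr1a, the autoreceptor on raphe cell bodies that is also found in cortex and septum, read 6.49, 6.43, 6.12 and 6.20 in heterozygous samples, against 7.19, 6.94, 6.51 and 6.39 in wildtype samples. It was well above background in no heterozygous sample and in 2 wildtype samples, both on 1 array, and so was not tested. By array, its means were 6.46 and 6.16 in heterozygous mice, against 7.07 and 6.45 in wildtype mice, so the second wildtype array lay between the heterozygous arrays. Of 15 cortical excitatory neuron markers, 8 were detected in all 8 samples and 13 had a value in all 8. The mean signal of these 13 was 8.499, 8.06, 7.92 and 7.88 in heterozygous samples, against 9.72, 8.35, 8.21 and 8.17 in wildtype samples. Wildtype replicate 1 was highest by both measures, whereas wildtype replicate 2 was within the heterozygous range of the markers. Their part in the Htr1a signal was not tested.

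Of the Gq-coupled receptors, Htr2a, which is known from cortical pyramidal neurons, read 7.18, 7.25, 7.58 and 7.32 in heterozygous samples, against 7.43, 7.08, 6.95 and 6.77 in wildtype samples. The groups overlapped, and the difference of 0.27 (SE 0.29) did not pass the test (limma adjusted p = 0.90). Its sign turned with the scanner's processed signals, to −0.585, and with a spatial trend over the slide removed, to −0.13.

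Htr2c, whose messenger RNA is edited and spliced in neurons, was read by 3 probes along the transcript. The brightest, A_55_P1977503 (chrX:143631655-143631714), starts at base 4584 of the transcript as the files give it. It read 10.75, 10.68, 10.88 and 10.75 in heterozygous samples, against 10.50, 10.57, 10.36 and 10.41 in wildtype samples. All heterozygous samples were above all wildtype samples, by a small margin. The means were 10.77 ± 0.08 in heterozygous and 10.46 ± 0.09 in wildtype samples (SD, n = 4 each), and the difference of 0.31 (SE 0.23, 95% interval −0.21 to 0.83) did not pass the test (limma adjusted p = 0.82).

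The median of the 48 spots around that probe shifted in the same direction as the probe on each array. Single spots shifted in both directions on every array. The probe read 0.14 and 0.27 above the other arrays on the heterozygous arrays of replicates 1 and 2 and of replicates 3 and 4, where its neighbours had medians of 0.23 and 0.37. On the wildtype arrays it read −0.11 and −0.30, where the neighbours had medians of −0.07 and −0.50. Removing a spatial trend over the slide left a difference of 0.11, and the scanner's processed signals gave 0.02. The part of slide position in this difference was not tested. The mean signal of 15 choroid plexus markers, another source of Htr2c, was 7.98, 7.73, 9.78 and 8.20 in heterozygous samples, against 6.91, 7.43, 9.02 and 10.09 in wildtype samples, and its defining marker Ttr ranged from 12.19 to 17.22 in heterozygous and from 6.65 to 17.35 in wildtype samples. Of these markers 3 were detected in all 8 samples. The highest marker means were those of heterozygous replicate 3 and wildtype replicate 4, where the Htr2c probe read 10.88, its highest value, and 10.41. The part of choroid plexus in the Htr2c signal was not tested.

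The other Htr2c probes, shown above, start at bases 1076 and 2008 and lie in the coding part. A_55_P2068461 read 10.72, 7.39 and 7.03 in heterozygous replicates 1, 3 and 4, against 7.90, 7.89, 7.80 and 7.64 in wildtype samples. The spot of heterozygous replicate 2, at 10.46, carried an outlier flag and was left out of the fit, which therefore used 7 samples. Both mice of 1 heterozygous array thus stood far above the other 6 samples. They were read in the 2 dyes of the same spot, so these are not 2 independent readings. The remaining heterozygous mice were below all wildtype mice. The difference of 1.00 (SE 0.88, 95% interval −1.03 to 3.04) did not pass the test (limma adjusted p = 0.87). It was −0.59 without that array and 2.87 without the other heterozygous array, where heterozygous replicate 1 alone stood for its genotype. On the array of heterozygous replicates 1 and 2 the probe lay 2.98 above the others, while its 47 neighbouring spots had a median of −0.34. Single neighbouring spots ranged from −1.29 to 3.74 there. Across the array, 30 of 22321 probes (0.134%) had both of these mice more than 2 above all other samples, against 10, 20 and 29 probes for the other arrays. The cause of the high values was not tested.

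The stop-codon probe, A_55_P2158921, had no such step. It read 6.72, 6.98, 6.67 and 6.78 in heterozygous samples, against 7.03, 7.13, 7.18 and 6.88 in wildtype samples. It was detected in 1 heterozygous and 3 wildtype samples, and heterozygous replicate 2 lay above wildtype replicate 4. The difference was −0.27 (SE 0.30, limma adjusted p = 0.92), and −0.13 with a spatial trend over the slide removed. On each array the median of the spots around the probe shifted in the same direction as the probe. The part of slide position was not tested. The 3 probes of Htr2c thus gave differences of both signs, and none passed the test.

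**Figure D3:**
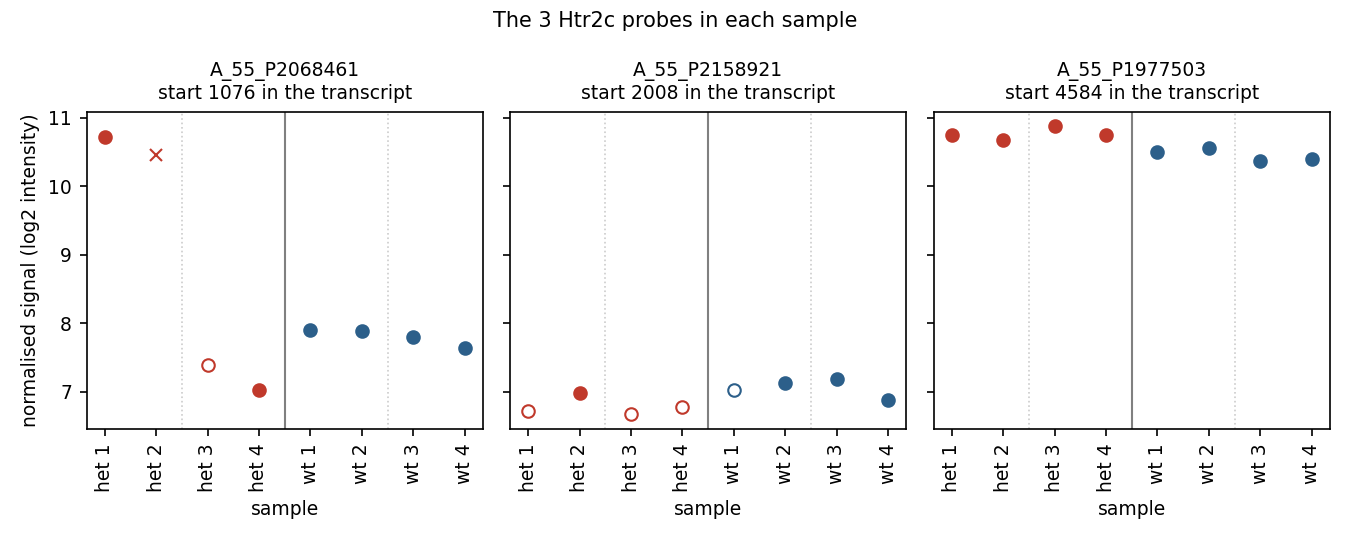
Normalised log2 intensity (vertical axis) of the 3 Htr2c probes in each sample, heterozygous left of wildtype; dotted lines part the arrays, open points were not well above background, and the cross is the spot with an outlier flag. The high values of A_55_P2068461 in heterozygous replicates 1 and 2 (10.72 and 10.46), the 2 dyes of the same spot, have no counterpart in the other 2 probes.

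**Figure D4:**
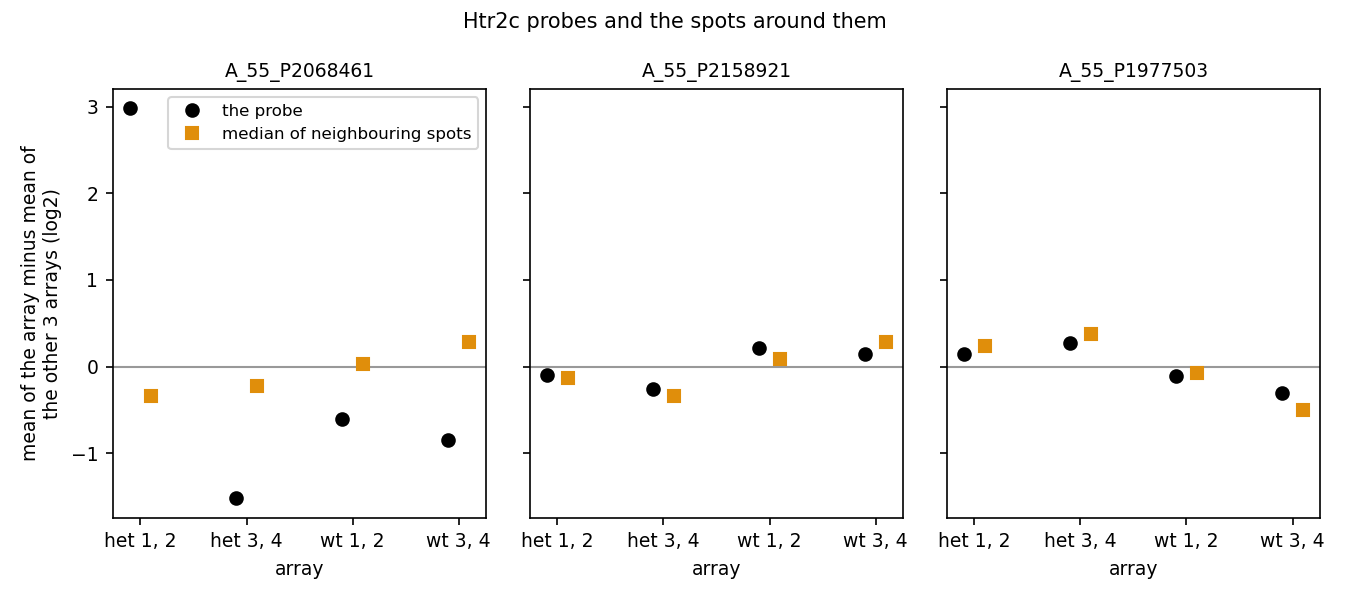
Mean of each array minus the mean of the other 3 arrays (log2, vertical axis) for each Htr2c probe (circles) and for the median of the spots up to 3 rows and columns away (squares). The circles follow the squares for A_55_P2158921 and A_55_P1977503, and for A_55_P2068461 the circle stands at 2.98 with the square at −0.34 on the array of heterozygous replicates 1 and 2. The single spots behind that square, not drawn, ranged from −1.29 to 3.74.

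Htr3a, the subunit that every serotonin-gated channel needs and that is known from interneurons, read 8.36, 7.23, 6.81 and 7.08 in heterozygous samples, against 7.32, 7.43, 7.04 and 6.90 in wildtype samples. Heterozygous replicate 1 stood above the rest and the other samples of both genotypes intermixed. The difference of 0.20 (SE 0.64) did not pass the test (limma adjusted p = 0.98), and it was −0.23 without heterozygous replicate 1 and its array partner and 0.62 without the other heterozygous array.

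Among the receptors that raise cyclic AMP, Htr7 gave the brightest signal. Its probe A_55_P2100103 (chr19:36033339-36033398) read 8.07, 7.90, 7.48 and 7.87 in heterozygous samples, against 8.20, 8.55, 6.81 and 7.63 in wildtype samples. The wildtype mice ranged more widely, with the highest and lowest values of all, and they split by array. The difference was 0.04 (SE 0.51, limma adjusted p = 0.997), and leaving out the array that held wildtype replicates 3 and 4 gave −0.54 and leaving out the other wildtype array gave 0.61. The other Htr7 probe, A_55_P2177309, which the files describe as a splice variant, lay between 5.96 and 6.25 in heterozygous and between 5.93 and 6.04 in wildtype samples, within the range of undetected probes.

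Htr4, whose product binds the adaptor S100a10, read 7.44, 7.15, 7.26 and 7.01 in heterozygous samples by probe A_55_P1990400, against 7.25, 7.35, 7.16 and 6.73 in wildtype samples. The groups overlapped almost fully, with a difference of 0.09 (SE 0.31, limma adjusted p = 0.98). Its other probe, A_52_P581594, spans a splice junction (chr18:62587815-62597080, 9266 bases of genome) and lay between 6.15 and 6.41 in heterozygous and between 5.98 and 6.21 in wildtype samples without being detected.

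Htr6, a receptor found mostly in striatal and cortical neurons, read 6.94, 7.27, 6.94 and 7.03 in heterozygous samples by the probe shown above, against 7.18, 7.53, 7.00 and 6.65 in wildtype samples. Heterozygous samples fell inside the wildtype range, and the difference was −0.04 (SE 0.38, limma adjusted p = 0.995). The second Htr6 probe, A_55_P2028350 (chr4:138630767-138630826), was detected in 2 heterozygous and 1 wildtype sample and was not tested. It averaged 6.86 ± 0.22 in heterozygous and 6.78 ± 0.23 in wildtype samples (SD, n = 4 each).

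For the 3 receptor genes with the highest signals, the likest genes were sought by Pearson's r over the 8 samples with each dye's mean taken out, among 12637 genes and by the brightest probe. Htr2c was most like Mrap2 (r = 0.99), Nudt1 and Stk3, Htr7 was most like 2210417A02Rik (r = 0.99), Stambpl1 and Cyp2j6, and Htr1d was most like Fam120b (r = 0.996), Ust and Fancb. The 8 samples share 4 arrays, and with so many genes the highest r is high, so these are descriptions of shared pattern only.

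Of the 4 serotonin receptor genes outside the 10, 3 were at background. Htr2b, Htr3b and Htr5a were detected in no sample, with means between 6.18 and 6.42 in both genotypes. Htr5b was detected in no heterozygous sample and in wildtype replicates 2 and 4, where it read 7.24 and 7.28, against 6.49 to 6.78 in heterozygous samples.

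The genes that make, move and break down serotonin were tested for 10 of 17 on the array. Limma called none in either direction, and 0 had an unadjusted p under 0.05. Tph1 and Tph2, the rate-limiting enzymes of synthesis, and Slc6a4, the serotonin transporter of raphe fibres, were detected in no sample. Slc18a2, the vesicular monoamine transporter, had the lowest p of the list at 6.96 ± 0.09 in heterozygous and 7.69 ± 0.62 in wildtype samples (SD, n = 4 each; difference −0.73, SE 0.47, limma adjusted p = 0.78). Maoa, which oxidises serotonin, differed by 0.40, and Aldh2 and Ddc by −0.33 and −0.21. The list's median was −0.13 with 3 genes above 0 and 7 below, beside a median of −0.02 over the 13638 genes with a symbol.

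Proteins that bind or regulate serotonin receptors gave the lowest unadjusted p values of the lists. Of 23 on the array 18 were tested, none was called, and 4 had an unadjusted p under 0.05, against 7.81% of all genes. S100a10 (p11), an adaptor that binds Htr1b and Htr4 and carries them to the cell surface, read 10.49, 10.18, 9.61 and 9.28 in heterozygous samples, against 11.62, 11.07, 10.997 and 10.77 in wildtype samples. All heterozygous samples lay below all wildtype samples, with a difference of −1.23 (SE 0.34, unadjusted p = 0.0057, limma adjusted p = 0.44).

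Ahnak, a scaffold partner of S100a10, lay the other way by its brightest probe, at 10.36 ± 0.20 in heterozygous and 9.61 ± 0.09 in wildtype samples (SD, n = 4 each; difference 0.75, limma adjusted p = 0.49), and its 3 tested probes differed in sign. Ric3, a chaperone of the Htr3a and nicotinic channels, had a difference of −0.90 (limma adjusted p = 0.54). Fyn, a kinase that binds Htr6, had a difference of −0.75 (limma adjusted p = 0.62). The list had 6 genes above 0 and 12 below, with a median of −0.15.

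The G-protein routes below the receptors held no called gene either. Of 12 tested genes of the inhibitory route, 5 lay above 0 and 7 below (median −0.06), and Gnai1, an inhibitory alpha subunit, had the only unadjusted p under 0.05, with a difference of −0.99 (SE 0.43, limma adjusted p = 0.62, 7 samples in the fit because wildtype replicate 1 had an outlier flag). Rgs7, Gnao1 and Rgs9, 2 regulators and 1 alpha subunit of the same route, differed by −0.63, 0.81 and 0.83. Of 23 tested genes of the stimulatory route, 11 lay above 0 and 12 below (median −0.01), and the lowest p values belonged to Prkaca (0.52), Adcy9 (0.54), Pde4b (−0.73) and Gng7 (0.75).

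Of 16 tested genes of the Gq and phospholipase C route, on which Htr2a and Htr2c act, 7 lay above 0 and 9 below (median −0.04). Gnaq, the alpha subunit itself, read 9.88, 9.97, 11.53 and 11.73 in heterozygous samples, against 11.83, 11.78, 11.75 and 11.90 in wildtype samples. The array of heterozygous replicates 1 and 2 held the low values, and the difference of −1.04 did not pass the test (SE 0.46, limma adjusted p = 0.63). Dgkb, a diacylglycerol kinase abundant in striatum, differed by 1.06, and Gna11 and Prkcb by 0.72 and 0.63, none of which passed.

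**Figure D5:**
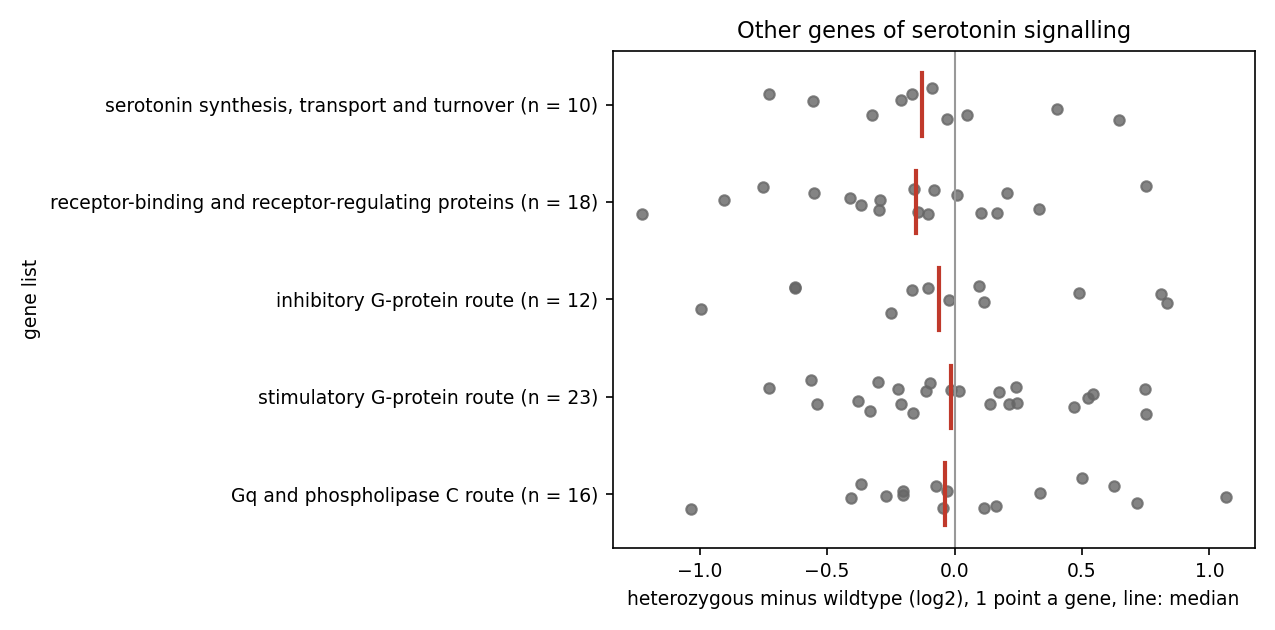
Heterozygous minus wildtype log2 difference (horizontal axis) of each tested gene, by its brightest probe, in 5 lists of serotonin signalling, with a line at the list's median. The medians lie between −0.15 and −0.01, and no gene was called.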

How the data were processed

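RNA of the striatum of 8 mice was labelled with Cy3 or Cy5 and hybridised as pairs of 1 genotype, per the labels. The deposited scanner files hold raw spot and local background intensities of each channel, read by Agilent Feature Extraction 11.0.1.1 per the file headers. The authors also deposited a table of values, found here to be a ratio on a linear scale: background (median) taken from spot signal (median), over the column's median. 100% of its values were equal within 0.1% to that computed from the scanner files, each column's median was 1, and no header states these steps.

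Each sample's own channel was corrected with normexp (offset 50) and normalised by loess within and Aquantile between arrays, and log2 values were tested with limma 3.58.1 in R 4.3.3 (statmod 1.5.0). Controls and outlier-flagged spots entered the background correction and the normalisation between arrays. Controls had no weight in the loess and were not tested. Flagged spots were left out when probe values were formed. A probe was tested if well above background in 4 or more samples and given at least 3 values per genotype. The model held genotype and dye, with the array as a random block (estimated correlation 0.81), with Benjamini-Hochberg adjustment over all 19743 probes at 0.05. The script was tested on simulated data. Tables and figures used Python 3.11.15 with pandas 2.3.3, numpy 2.4.6 and matplotlib 3.10.9.

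Of 39429 probes, 27324 were named by RefSeq accession, 5160 by the file and 6945 had no name. The text names every receptor probe, Brd2, the 4 tested genes of each pathway list with the lowest p, all other receptor genes, leading or defining markers of cell types, and the 3 likest genes. The atrial markers named were chosen after their values were seen. Marker means cover genes with a value in all 8 samples. The receptors and the lists were chosen with earlier results of these data known. Alternatives covered background correction, normalisation, spatial trend, filters, outlier spots, blocks, dyes, the authors' table and samples or arrays left out.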

Additional observations from a re-analysis of the deposited data

How the results depend on the processing

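No serotonin receptor probe was called under any of the 27 alternatives of the fit. With 2 arrays per genotype, differences within intervals of 0.52 to 2.03 could not be told from 0 even before adjustment. A call after adjustment over all probes needed a larger difference. The signs of Htr1b, Htr1d, Htr2c A_55_P1977503 and Htr2c A_55_P2158921 held throughout, Htr1b ranging between 0.12 and 0.99, and the other 7 tested probes turned sign at least once; the cause was not tested. Htr6 A_51_P183497 turned to 0.22 with the scanner's processed signals, 0.019 with the spatial trend removed, 0.059 with Cy5 samples alone, 0.22 without the first wildtype array and 0.017 without the second heterozygous array (first arrays hold replicates 1 and 2, second arrays 3 and 4). Htr2a turned to −0.585 with processed signals and −0.13 with the spatial trend removed. Htr1f turned to 0.047 with the spatial trend removed and 0.081 without the first wildtype array. Htr7 turned to −0.019 with the spatial trend removed, −0.20 with Cy5 samples, −0.54 without the second wildtype array and −0.12 without the first heterozygous array, against 0.61 without the first wildtype array. Htr3a turned to −0.011 with Cy5 samples, −0.0029 without the second wildtype array and −0.23 without the first heterozygous array. Htr4 A_55_P1990400 turned to −0.086 without the second wildtype array. Htr2c A_55_P2068461 turned to −0.73 with Cy5 samples and −0.59 without the first heterozygous array, against 2.87 without the second. For this probe the Cy5 value rests on heterozygous replicate 4 alone, and the 2.87 on heterozygous replicate 1 alone. With 1 sample left out at a time, Htr6 ran between −0.20 and 0.086, Htr1f between −0.38 and 0.0069, Htr3a between −0.11 and 0.46, Htr7 between −0.14 and 0.19, and Htr2c A_55_P2068461 between −0.59, without heterozygous replicate 1, and 1.20. Over all probes, 0 were called in the main setting, 610 without the array block, 1 with the authors' table, between 0 and 1 with 1 sample left out (1 without wildtype replicate 4), 22 without the first and 16 without the second wildtype array, and 5 without the second heterozygous array. At an unadjusted p under 0.05 there were 1596, against 765 with processed signals, 971 with the spatial trend removed, 2996 without the filter on dim probes, 4184 without the array block, 3115 without the first wildtype array and between 1174 and 1454 with 1 sample left out. With the replicate number as a block, 0 probes were called and 2313 had an unadjusted p under 0.05. Same-numbered mice, which share a dye, deviated together at r = 0.040, 0.256, 0.164 and 0.125. With each dye's mean taken out, r was −0.043, 0.182, 0.080 and 0.055. Before that step 2 of the 4 numbers were their own best match, so the numbers were not taken to pair the mice. By the milder detection mark 7 receptor probes, not 1, were detected in all 8 samples, and 6 of the 15 kept their place in the order of signals with processed signals.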
